A study of Homo sapiens with 4 samples.

Results

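The semaphorin, plexin, Slit, Robo, netrin and UNC5 genes were measured by RNA sequencing in H1 human embryonic stem cells that had been led towards blood for 2 days. Members were found by their gene symbols, in a set drawn up with earlier results of these data known, and 44 of the 58365 rows of the deposited expression table matched. They comprised 20 semaphorins, 9 plexins, 3 Slits, 4 Robos, 4 netrins and 4 UNC5 receptors. Neuropilins were not part of the set. H1 is an established cell line, so that every library came from the same genetic background. All cells received activin A and BMP4 for 2 days, which starts mesoderm commitment. The DMSO group (2 libraries) received no IWP2 and the IWP2 group (2 libraries) received IWP2, an inhibitor of the acyltransferase PORCN that Wnt proteins need for secretion. The concentration of IWP2 is not given in the sources used here. The study asked whether Wnt signaling is needed for cells to leave pluripotency and turn on mesenchymal genes. No label says that the libraries of a group came from separate cultures, so the p-values below measure the spread between libraries, which may be technical.

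Semaphorins are secreted or membrane-bound ligands that act mainly through plexins, receptors whose cytoplasmic part lowers the activity of small GTPases and loosens cell adhesion. Secreted class 3 semaphorins mostly need a neuropilin beside the plexin, whereas the membrane-bound classes bind plexins directly. Slits signal through Robo receptors, and netrins through DCC, neogenin and the UNC5 family. These systems are best known for steering axons, but they also guide endothelial cells, neural crest and migrating mesoderm in the embryo.

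Levels are given in FPKM, sequenced fragments per kilobase of transcript scaled to the mapped total of the library, a unit set per transcript length that can be compared between genes. The depth behind them is unknown, since no read counts were used here. The summed FPKM per library was between 616418 and 653850, and between 24205 and 24512 genes had a value above 0. Libraries of the same group were closer to each other (Pearson r across genes of 0.975 and 0.981 on the log2 scale) than libraries of different groups (0.938 to 0.948). Of 11 Wnt target genes, 9 were lower with IWP2 and 2 were not called; SP5, a direct Wnt target, fell from 53.2 and 47.0 FPKM to 0.379 and 0.363 FPKM. All 10 tested primitive streak and mesoderm markers were lower with IWP2. Their summed level was 1150 to 1472 FPKM in DMSO and 150 to 173 FPKM in IWP2 libraries. Higher with IWP2 were 5 of 7 pluripotency markers, with sums of 970 to 1168 FPKM and 2394 to 2404 FPKM. POU5F1 made up most of the pluripotency sums, with 751 and 571 FPKM in DMSO and 1854 and 1844 FPKM in IWP2 libraries. NANOG and LIN28A were not called. Of 4 definitive endoderm markers, 3 were lower, with sums of 1775 to 2158 FPKM in DMSO and 119 to 130 FPKM in IWP2 libraries. CER1 made up most of the DMSO sums, with 1612 and 2048 FPKM against 38.6 and 34.2 FPKM with IWP2. SOX17, not called, was at 155 and 104 FPKM in DMSO and 79.7 and 94.9 FPKM in IWP2 libraries. Among 6 amnion and trophectoderm markers, 5 were tested, of which 2 were higher and 1 was lower, with sums of 78.2 to 96.2 FPKM and 125 to 128 FPKM. Of the neural, endothelial and blood markers, 6 of 9, 3 of 6 and 3 of 4 stayed under 1 FPKM in every library. NEUROG2 of the neural markers and GATA1 of the blood markers were listed at 0 in all 4 libraries. For neural cells 1 of 3 tested was lower (sums of 103 to 156 FPKM in DMSO and 84.1 to 93.9 FPKM in IWP2 libraries). Nearly all of this was TUBB3. For endothelium 2 of 4 tested were lower (60.1 to 66.2 FPKM and 39.6 to 41.3 FPKM, most of it KDR). For blood 1 of 1 tested was lower (2.52 to 2.85 FPKM and 0.502 to 0.550 FPKM). The part of these shifts in cell state in the guidance gene results was not tested. In bulk RNA, fewer cells of a type and less RNA per cell cannot be told apart.

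Of the 44 guidance genes, 37 had a mean of at least 0.5 FPKM over the 4 libraries and were tested. With IWP2, 5 rose (SEMA3E, SEMA4D, SEMA6A, SEMA6B and PLXNC1) and 9 fell (SEMA3C, SEMA4C, SEMA5A, SEMA5B, SEMA6D, PLXNA2, NTN1, NTN4 and UNC5C), at an adjusted p under 0.05 in limma fitted to all genes with Benjamini-Hochberg adjustment. The other 23 tested genes did not pass. Among all 15980 genes tested, 13.2% passed, 5.81% upwards and 7.35% downwards, against 37.8% of the tested guidance genes. Of the 14 called genes, 12 differed by at least 2-fold in mean FPKM, the exceptions being SEMA4C and SEMA4D. The median difference of the tested guidance genes was -0.15 on the log2(FPKM + 1) scale, beside -0.01 over all genes tested, and the median absolute difference was 0.38 beside 0.22. SEMA3D, PLXNC1, NTN1 and UNC5C reached the 0.5 FPKM mean only through the group in which they were high, so a wide difference was built into their passing it. The 2 groups did not overlap for 29 of the 37 genes, where this held for 58.6% of all genes tested. PLXNA2 was called whichever library was left out, and SEMA3E, SEMA6A, NTN4 and UNC5C whichever DMSO library was left out. NTN1 was called without DMSO library 1, and the other 8 calls were lost in each of these 4 fits. The number of guidance genes called was thus 6 without DMSO library 1, 5 without DMSO library 2, 1 without IWP2 library 1 and 1 without IWP2 library 2. With no filter on low values, 3 were called (PLXNA2, SEMA4C and SEMA5B).

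**Figure D1:**
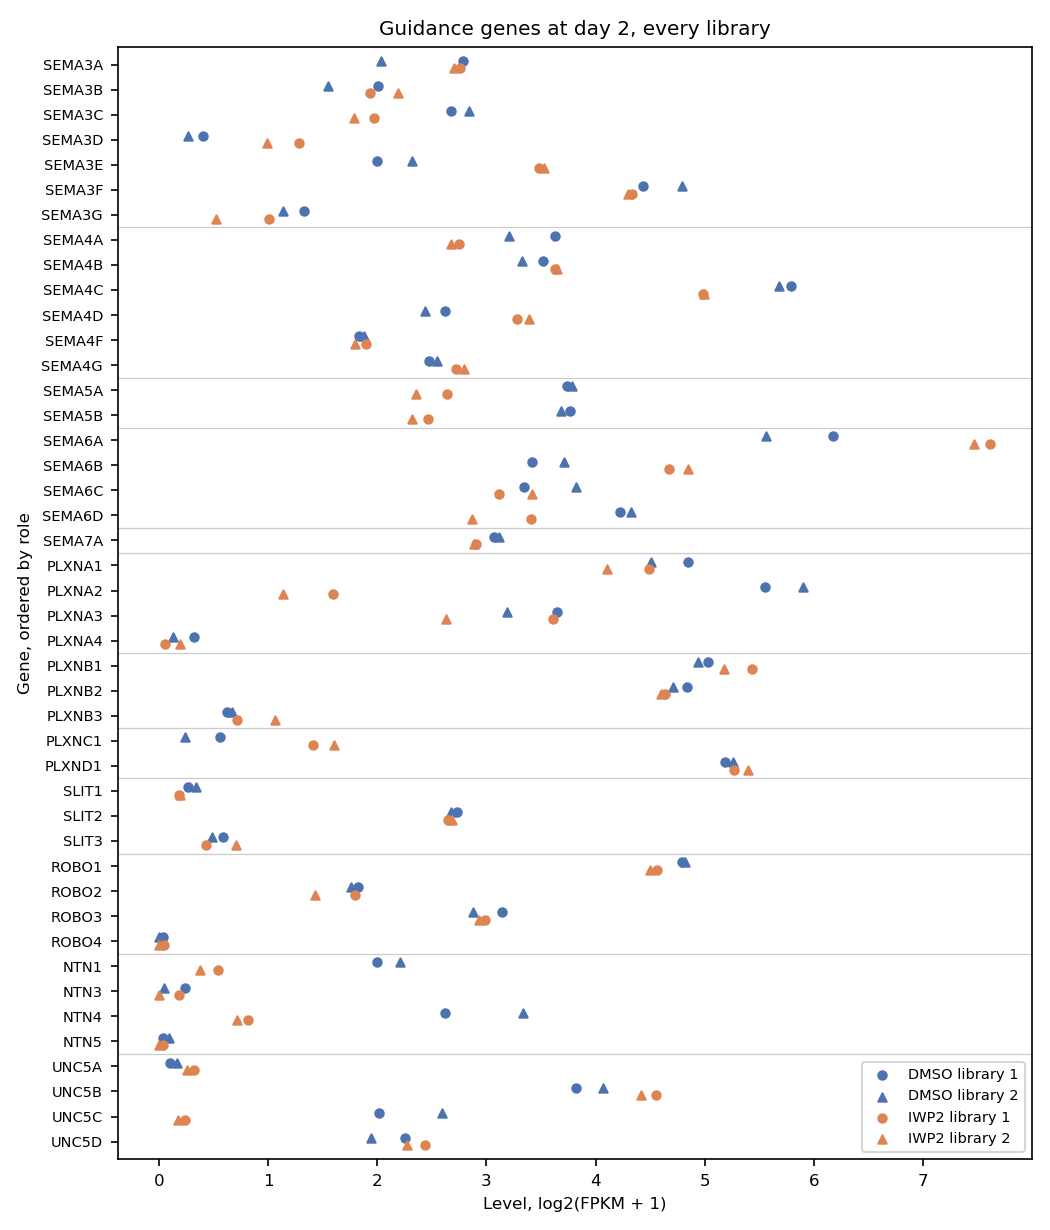
Level of each of the 44 guidance genes in every library as log2(FPKM + 1), in order of role; blue marks DMSO, orange marks IWP2, circles library 1 and triangles library 2. PLXNA2, NTN1, NTN4 and UNC5C show the widest gaps towards lower levels with IWP2, and SEMA6A stands highest of all in the IWP2 libraries.

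**Figure D2:**
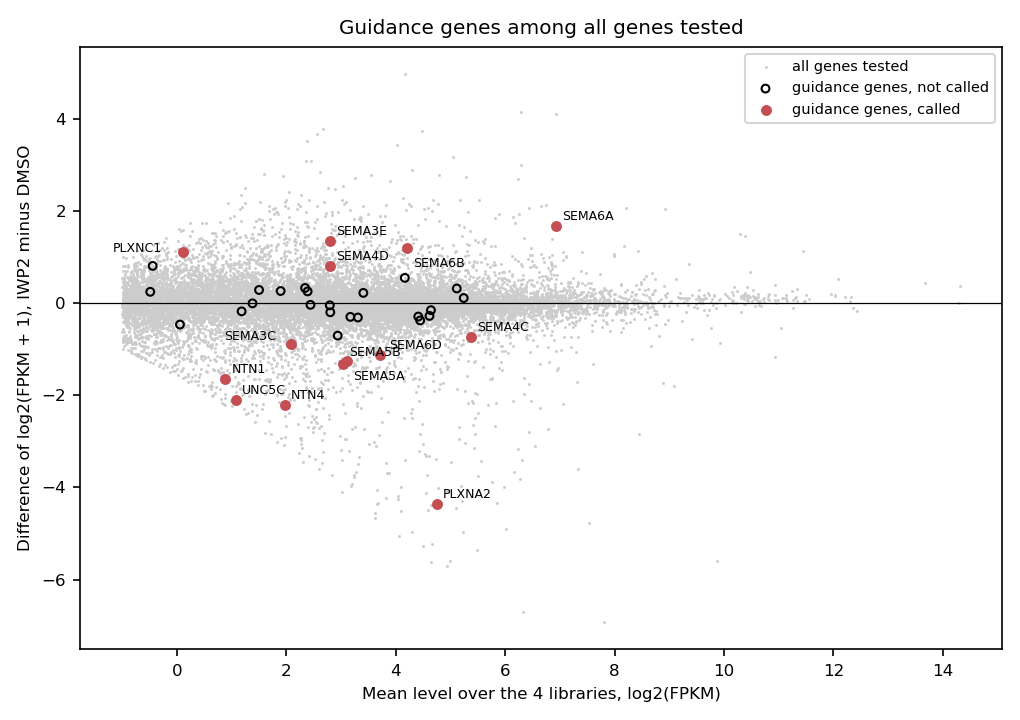
Difference of log2(FPKM + 1), IWP2 minus DMSO, against the log2 of the mean FPKM over the 4 libraries, for each of the 15980 genes tested (grey dots), with open circles for the 23 guidance genes not called and red points for the 14 called. PLXNA2 lies in the lower tail of the cloud at -4.36, and the open circles lie between -0.71 and 0.81.

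Promoter sequence was read from RefSeq (GRCh38.p14) for the 37 guidance genes with an entry, 63 starts in all; SEMA3A, SEMA6A, SEMA6B, NTN1, NTN3, UNC5B and UNC5D had none. The 250 bases before each start were searched on both strands for the TCF/LEF core CTTTGAT, the E-box CAGGTG bound by SNAI1 and the T-box sequence TCACACC. The TCF/LEF letters were present before 3 of the 63 starts (4.76%, SEMA3F, SEMA4G and SEMA6D), beside 2.26% of all 35116 promoters and 1.37% of the 15539 promoters of genes tested. CAGGTG was present before 9 (14.3%, beside 17.5% of all promoters and 16.05% of those of genes tested). It was present before none of the 19 starts of the 11 called genes with an entry. TCACACC was present before none of the 63 starts (beside 2.76% and 2.47%). These matches describe the letters in a short window and nothing more. The windows printed are those of the 2 genes with an entry and the widest falls by ratio of means, of SEMA6D, the called gene that has a CTTTGAT match, and of SEMA3E, the called gene that rose most among those with an entry and a mean over 5 FPKM in a group. Each is the outermost RefSeq start, 5′ to 3′ on the strand of the gene, and capitals mark the TCF/LEF match, which lies on the other strand and so reads ATCAAAG.
PLXNA2 (chr1:208244385-208244634, minus strand): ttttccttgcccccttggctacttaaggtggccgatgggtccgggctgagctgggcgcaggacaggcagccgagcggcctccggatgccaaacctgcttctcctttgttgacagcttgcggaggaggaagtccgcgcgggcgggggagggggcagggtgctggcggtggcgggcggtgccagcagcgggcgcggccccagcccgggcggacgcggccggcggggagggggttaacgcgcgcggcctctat
UNC5C (chr4:95548974-95549223, minus strand): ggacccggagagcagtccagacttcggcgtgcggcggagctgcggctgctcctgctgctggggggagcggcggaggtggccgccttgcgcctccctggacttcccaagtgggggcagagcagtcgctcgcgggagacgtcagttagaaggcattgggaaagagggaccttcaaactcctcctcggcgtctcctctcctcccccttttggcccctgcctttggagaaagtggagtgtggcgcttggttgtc
SEMA6D (chr15:47183839-47184088, plus strand): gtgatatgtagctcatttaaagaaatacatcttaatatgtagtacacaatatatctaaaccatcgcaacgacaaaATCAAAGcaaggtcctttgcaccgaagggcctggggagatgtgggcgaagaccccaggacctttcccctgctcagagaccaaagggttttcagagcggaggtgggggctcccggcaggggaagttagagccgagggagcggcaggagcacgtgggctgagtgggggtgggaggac
SEMA3E (chr7:83649140-83649389, minus strand): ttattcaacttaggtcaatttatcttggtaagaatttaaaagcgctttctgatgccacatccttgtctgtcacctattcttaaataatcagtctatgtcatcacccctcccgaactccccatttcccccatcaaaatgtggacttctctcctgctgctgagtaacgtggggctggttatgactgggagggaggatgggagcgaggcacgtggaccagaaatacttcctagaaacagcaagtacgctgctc
The PLXNA2 window is 72.4% G and C with 27 CG pairs and that of UNC5C 65.6% with 17, where the median over all promoters is 58.0% with 11. The SEMA3E window has 46.4% with 6 CG pairs and that of SEMA6D 53.6% with 9. SEMA6D also has windows that begin at chr15:47717255 and chr15:47718239. Neither holds a CTTTGAT match, and they have 72% and 74.8% G and C with 29 and 27 CG pairs.

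PLXNA2, a plexin of the A class that binds SEMA6A directly and serves class 3 semaphorins together with neuropilins, changed more than any other guidance gene. Its level was 45.8 and 58.7 FPKM in the DMSO libraries and 2.02 and 1.20 FPKM in the IWP2 libraries. The groups were far apart, with a 32.5-fold lower mean with IWP2 and a difference of -4.36 ± 0.21 (SE) on the log2(FPKM + 1) scale (limma, adjusted p = 0.00088). Among the 15980 genes tested it had the rank of 21 from the lowest difference. By mean FPKM it had rank 3 of the 44 genes in DMSO cells, within the spread of SEMA4C at rank 2, and rank 31 in IWP2 cells. The gene lies on chromosome 1 (chr1:208022242-208244320, GRCh38, minus strand).

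The remaining plexins had smaller differences, and of the 7 tested only PLXNC1 was called. PLXNA1, a receptor for class 3 and class 6 semaphorins, measured 27.8 and 21.7 FPKM in DMSO and 21.5 and 16.2 FPKM in IWP2 libraries. Its difference was -0.38 with a 95% interval from -0.85 to 0.09 on the log2(FPKM + 1) scale and did not pass. PLXNA3, the X-linked member of the class, had 11.5 and 8.13 FPKM in DMSO against 11.2 and 5.18 FPKM in IWP2 libraries, and the groups overlapped. The 2 IWP2 libraries disagreed more on PLXNA3 than the group means did. PLXNA4 was at 0.248 FPKM or less in every library and was not tested. The summed A plexin level was 85.4 and 88.6 FPKM in DMSO and 34.7 and 22.7 FPKM in IWP2 libraries.

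None of the 3 B plexins passed the limma test, and only PLXNB1 had an unadjusted p under 0.05 (0.0428, adjusted p = 0.16). PLXNB1, the receptor of SEMA4D, was at 31.8 and 29.7 FPKM in DMSO and 42.2 and 35.1 FPKM in IWP2 libraries, with no overlap. PLXNB2, which binds class 4 semaphorins including SEMA4C, was at 27.6 and 25.2 FPKM against 23.9 and 23.3 FPKM. PLXND1, the receptor that SEMA3E binds without a neuropilin, was at 35.3 and 37.4 FPKM in DMSO and 37.5 and 41.2 FPKM in IWP2 libraries. Its interval, -0.13 to 0.34 on the log2(FPKM + 1) scale, spanned 0. PLXNC1, the plexin that SEMA7A binds, rose from 0.470 and 0.178 FPKM to 1.66 and 2.03 FPKM, a 5.69-fold higher mean and a difference of 1.11 ± 0.20 (SE; limma, adjusted p = 0.029). It stayed a minor plexin and passed the 0.5 FPKM filter only through the IWP2 group, so a wide difference was built in. PLXNC1 shares 177 exon bases with CEP83 on the opposite strand, whose level was between 6.15 and 7.15 FPKM in all libraries. It also shares 222 with AC073655.2, an antisense gene at 0.709 and 0.282 FPKM in DMSO and 0.0735 and 0.174 FPKM in IWP2 libraries. The library kit does not mark strand, so reads in those stretches cannot be told apart.

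**Figure D3:**
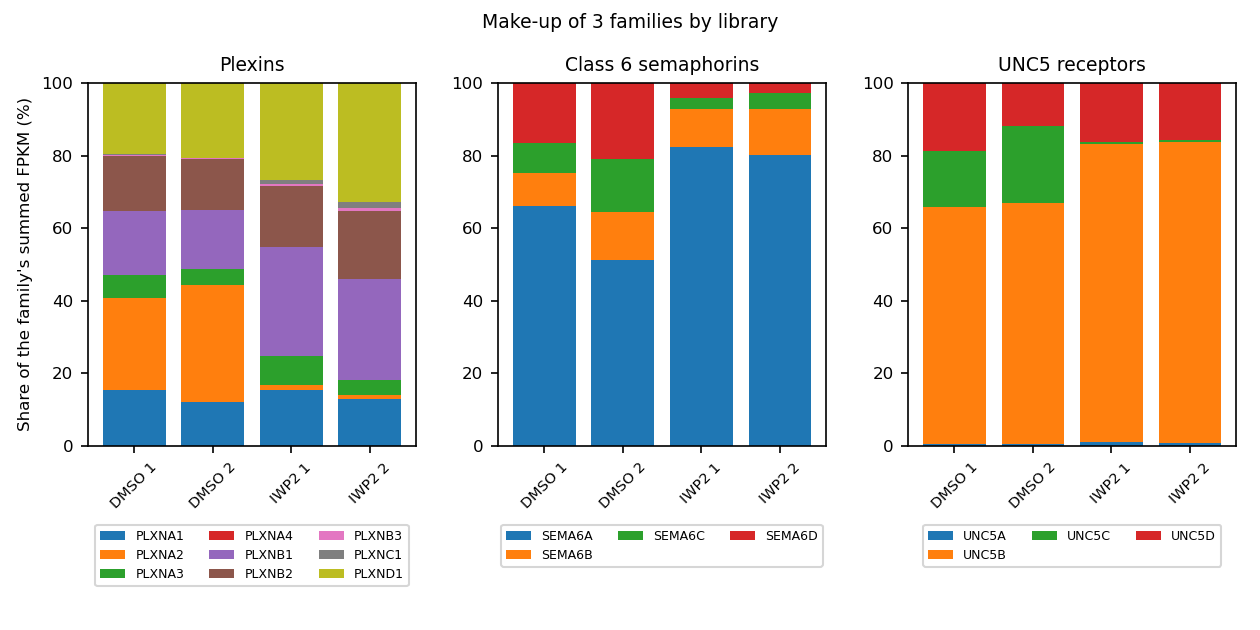
Share of each member in the summed FPKM of the plexins (left), the class 6 semaphorins (middle) and the UNC5 receptors (right), per library. PLXNA2 made up 25.3% and 32.3% of plexin FPKM in DMSO and 1.44% and 0.955% in IWP2 libraries, SEMA6A made up 66.1% and 51.2% of class 6 in DMSO and 82.4% and 80.1% in IWP2 libraries, and UNC5C 15.2% and 21.3% of the UNC5 receptors against 0.649% and 0.529%.

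Within the summed plexin FPKM, PLXNA2 gave the largest share in both DMSO libraries and under 2% in both IWP2 libraries. PLXND1 and PLXNB1 led in IWP2 cells, with 26.7% and 32.8% for PLXND1 and 30.0% and 28.0% for PLXNB1. The summed plexin level was 181 and 182 FPKM in DMSO and 141 and 125 FPKM in IWP2 libraries.

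Class 6 semaphorins are membrane proteins that act as ligands and, in some settings, as receptors, and 3 of the 4 were called, in different directions. SEMA6A, a ligand of PLXNA2 and PLXNA4, had the highest mean FPKM of the guidance genes in both groups, although PLXNA2 and SEMA4C stood above it in DMSO library 2. It measured 71.4 and 46.3 FPKM in DMSO and 196 and 176 FPKM in IWP2 libraries, a 3.16-fold higher mean (difference 1.67 ± 0.21 SE on the log2(FPKM + 1) scale, limma, adjusted p = 0.011). Both IWP2 libraries were above both DMSO libraries, although the DMSO libraries differed from each other. SEMA6A-AS1, an antisense gene that shares 268 exon bases with SEMA6A, was at 3.80 and 2.25 FPKM in DMSO and 14.3 and 9.27 FPKM in IWP2 libraries, and without strand its reads cannot be told apart from those of SEMA6A there. SEMA6B, a close relative, rose from 9.71 and 12.1 FPKM to 24.5 and 27.8 FPKM, 2.40-fold in the means (limma, adjusted p = 0.0087). SEMA6D, a ligand of PLXNA1 known from heart development, fell from 17.7 and 19.0 FPKM to 9.60 and 6.30 FPKM, 2.31-fold in the means (limma, adjusted p = 0.025). SEMA6C was at 9.14 and 13.1 FPKM against 7.67 and 9.68 FPKM, the groups overlapped, and it was not called. Summed over the class, levels were 108 and 90.4 FPKM in DMSO and 237 and 220 FPKM in IWP2 libraries. Thus the ligand SEMA6A was higher, and its receptor PLXNA2 lower, in both IWP2 libraries than in either DMSO library.

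Both class 5 semaphorins, transmembrane proteins with thrombospondin repeats outside the cell, fell by similar amounts. SEMA5A went from 12.4 and 12.7 FPKM to 5.23 and 4.11 FPKM with IWP2 (2.69-fold, limma, adjusted p = 0.0076). SEMA5B went from 12.6 and 11.8 FPKM to 4.53 and 3.99 FPKM (2.86-fold, limma, adjusted p = 0.0047). Replicates lay close together in each group and the groups were clearly separate for both genes. On the log2(FPKM + 1) scale the differences were -1.26 with a 95% interval from -1.62 to -0.90 for SEMA5A and -1.33 from -1.64 to -1.02 for SEMA5B. The genes lie on different chromosomes, SEMA5A at chr5:9035026-9546075 and SEMA5B at chr3:122909193-123028605 (GRCh38).

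Among the 7 secreted class 3 semaphorins, SEMA3E rose and SEMA3C fell. SEMA3E, known for vascular patterning through PLXND1, measured 2.999 and 3.998 FPKM in DMSO and 10.1 and 10.5 FPKM in IWP2 libraries (2.95-fold, difference 1.34 ± 0.15 SE, limma, adjusted p = 0.0082). SEMA3C, which guides neural crest cells to the cardiac outflow tract, measured 5.39 and 6.18 FPKM in DMSO and 2.92 and 2.44 FPKM in IWP2 libraries (2.16-fold, difference -0.88 ± 0.15 SE, limma, adjusted p = 0.024). SEMA3F, a ligand for NRP2 complexes and the most abundant of the class, was at 20.6 and 26.7 FPKM against 19.2 and 18.7 FPKM and did not pass (adjusted p = 0.25). SEMA3A, the prototype collapsing factor for growth cones, was at 5.88 and 3.09 FPKM against 5.78 and 5.52 FPKM, with the IWP2 values inside the DMSO range. The sums over the class were close, 39.7 and 43.2 FPKM in DMSO and 43.3 and 42.1 FPKM in IWP2 libraries, while SEMA3E went from 7.56% and 9.25% to 23.4% and 25.0% of them.

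SEMA3C, SEMA3E, SEMA3A and SEMA3D lie on chromosome 7, from SEMA3C at chr7:80742538-80922359 to SEMA3D at chr7:84995553-85186855 (GRCh38). SEMA3E and SEMA3A are 307 kb apart, and 503 kb separate SEMA3A from SEMA3D. SEMA3C was called lower, SEMA3E was called higher, and SEMA3A and SEMA3D were not called. SEMA3D was at 0.319 and 0.198 FPKM in DMSO and 1.43 and 0.987 FPKM in IWP2 libraries. It reached the 0.5 FPKM mean only through the IWP2 group, so a wide difference was built in. The groups did not overlap, and SEMA3D missed the threshold (limma, adjusted p = 0.064). It passed with no mean-variance trend in the fit (limma, adjusted p = 0.0405), and its adjusted p was between 0.0581 and 0.23 under the other alternatives that tested it. PLXNC1, called higher, and NTN4, called lower, likewise lie 1350 kb apart on chromosome 12.

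**Figure D4:**
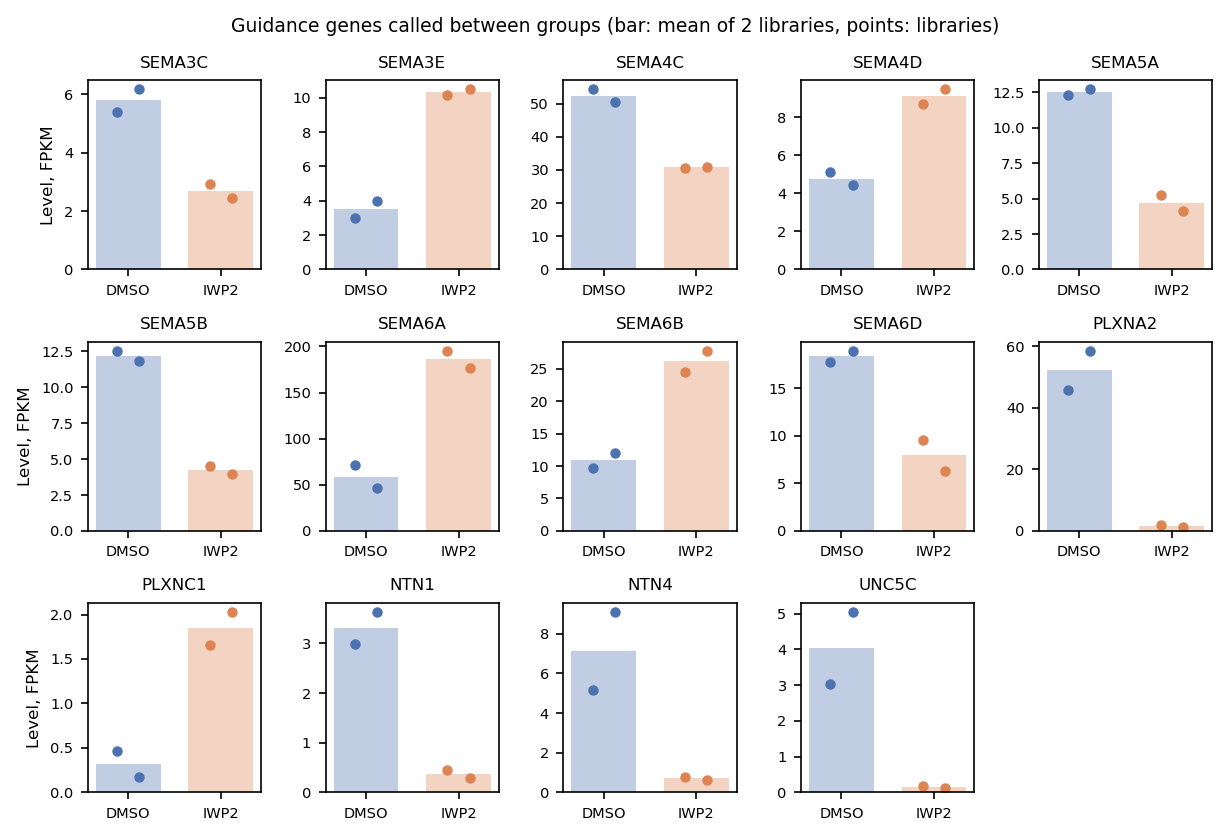
FPKM of the 14 guidance genes called between groups, a panel for each gene with its own axis from 0; points are libraries and bars are the means of 2 libraries. In every panel the 2 DMSO points and the 2 IWP2 points do not overlap, which held for 58.6% of all genes tested. The genes shown were picked by their call on these same values. They run from a 32.5-fold lower mean for PLXNA2 to a 5.69-fold higher mean for PLXNC1. PLXNC1, NTN1 and UNC5C passed the filter on low values only through the group in which they were high.

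Class 4 semaphorins are transmembrane ligands of the B plexins, and 2 of the 6 were called. SEMA4C, a ligand of PLXNB2, fell from 54.4 and 50.4 FPKM to 30.7 and 30.9 FPKM (1.70-fold, difference -0.75 ± 0.08 SE, limma, adjusted p = 0.0080). SEMA4D, the PLXNB1 ligand, rose from 5.14 and 4.43 FPKM to 8.71 and 9.50 FPKM (1.90-fold, difference 0.81 ± 0.13 SE, limma, adjusted p = 0.020). Either change was small beside that of PLXNA2, and the replicates were tight. SEMA4A, first known from immune cells, was at 11.3 and 8.24 FPKM against 5.70 and 5.39 FPKM and missed the threshold (adjusted p = 0.061). SEMA4B was at 10.5 and 9.003 FPKM against 11.4 and 11.5 FPKM, and was not called. SEMA4G was at 4.54 and 4.84 FPKM against 5.604 and 5.95 FPKM, and shares 1170 exon bases with the more abundant MRPL43 on the other strand. Reads in the shared bases cannot be assigned, so the level of SEMA4G is uncertain. SEMA7A, the class 7 semaphorin held by a lipid anchor, was at 7.41 and 7.65 FPKM against 6.47 and 6.38 FPKM. It was not called (limma, adjusted p = 0.31). Its receptor PLXNC1 was called, but passed the filter on low values only through the IWP2 group.

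The netrins that were measurable both fell. NTN4, a laminin-related protein of basement membranes, went from 5.15 and 9.09 FPKM in DMSO to 0.762 and 0.641 FPKM in IWP2 libraries (10.1-fold, difference -2.21 ± 0.27 SE, limma, adjusted p = 0.0094). NTN1, the founding netrin and ligand of DCC and the UNC5 receptors, went from 2.99 and 3.63 FPKM to 0.452 and 0.297 FPKM (8.84-fold, difference -1.65 ± 0.18 SE, limma, adjusted p = 0.0070). NTN1 passed the 0.5 FPKM filter only through the DMSO group, so a wide difference was built in. NTN4 varied between the DMSO libraries, but each lay well above both IWP2 libraries. NTN3 and NTN5 were at 0.177 FPKM or less everywhere and were not tested.

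Of the 3 tested UNC5 receptors, which turn netrin signals into repulsion, 1 was called. UNC5C fell from 3.04 and 5.05 FPKM to 0.178 and 0.130 FPKM (26.3-fold, difference -2.10 ± 0.24 SE, limma, adjusted p = 0.0083). That was the largest ratio of means after that of PLXNA2, although NTN4 differed more on the log2(FPKM + 1) scale. UNC5C passed the 0.5 FPKM filter only through the DMSO group, so a wide difference was built in. Its ratio rests on low IWP2 values. UNC5B, the family member known from blood vessels, was at 13.1 and 15.7 FPKM in DMSO and 22.6 and 20.4 FPKM in IWP2 libraries, without overlap. Its difference of 0.55, with a 95% interval from 0.22 to 0.87, had an adjusted p of 0.053 in limma and did not pass; under 4 of the alternative settings it did. UNC5B made up 65.6% and 66.3% of the summed UNC5 level in DMSO and 82.3% and 83.0% in IWP2 libraries. UNC5D was between 2.83 and 4.43 FPKM over all libraries and was not called, and UNC5A was at 0.245 FPKM or less.

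The Slit and Robo genes gave no call in limma. Of 4 tested genes, only ROBO1 had an unadjusted p under 0.05 (0.0229, adjusted p = 0.11). ROBO1, the most abundant Slit receptor here, was at 26.7 and 27.3 FPKM in DMSO and 22.6 and 21.6 FPKM in IWP2 libraries, a ratio of means of 1.22 without overlap. SLIT2, the sole Slit above 1 FPKM, was at 5.62 and 5.41 FPKM against 5.27 and 5.41 FPKM, with an interval from -0.34 to 0.27 on the log2(FPKM + 1) scale. ROBO3, a divergent Robo that in mammals binds Slits weakly, was at 7.82 and 6.35 FPKM against 6.95 and 6.62 FPKM. These values overlapped between groups. ROBO4, an endothelial Robo, was listed at 0 in 1 library of each group and at most at 0.0326 FPKM in the others, and SLIT1 and SLIT3 were at 0.627 FPKM or less. SLIT1, SLIT3, ROBO4, PLXNA4, NTN3, NTN5 and UNC5A were the 7 genes below the filter.

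Of the other tested genes under 5 FPKM, SEMA3B, SEMA3G, SEMA4F, PLXNB3 and ROBO2 were not called, with differences between -0.47 for SEMA3G and 0.28 for SEMA3B. PLXNB3 shares 1432 exon bases with SRPK3 on the same strand, so its level is uncertain. SRPK3 was between 0.323 and 0.430 FPKM in all libraries. Over the 23 tested genes that were not called, differences ran from -0.71 to 0.81 on the log2(FPKM + 1) scale, and single 95% intervals reached as low as -1.21 (PLXNA3) and as high as 1.32 (SEMA3D). For genes with intervals that wide, a missed threshold does not show that their levels were alike.

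**Figure D5:**
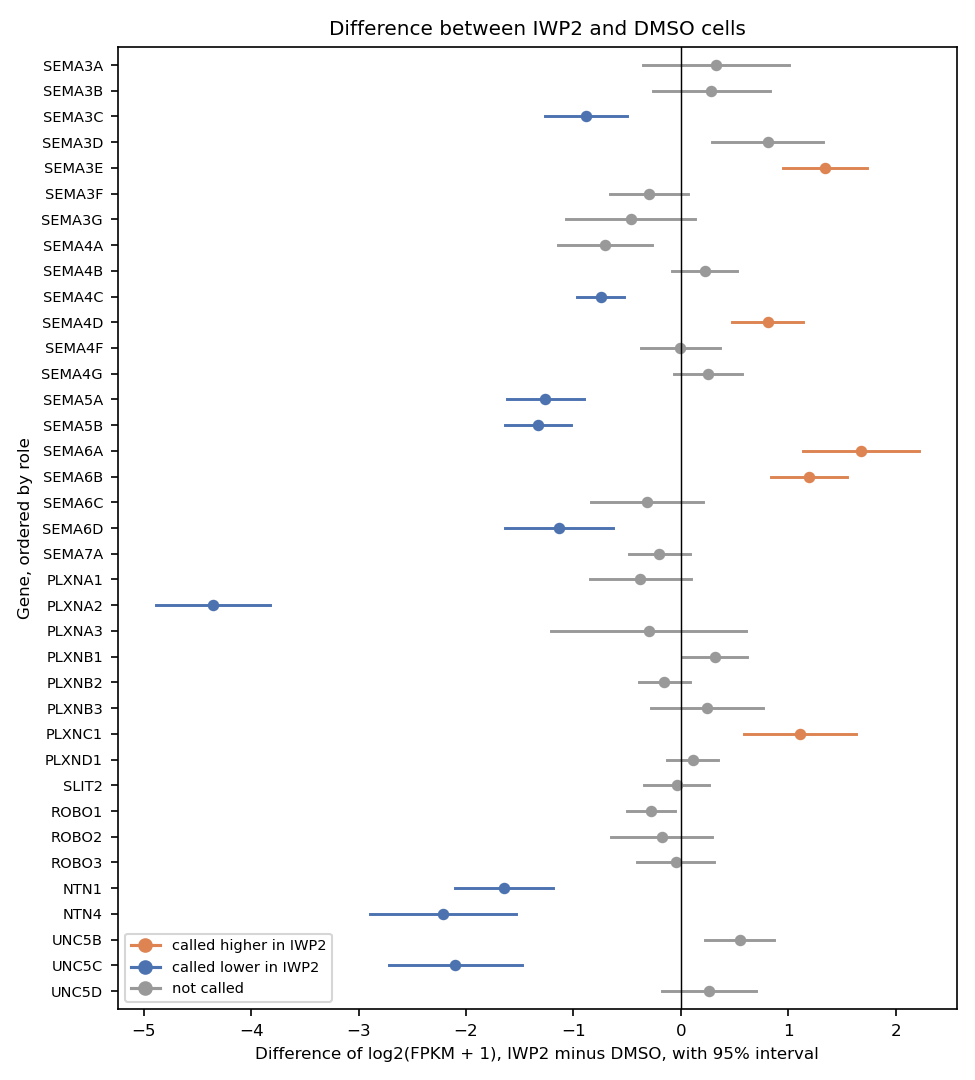
Difference of log2(FPKM + 1), IWP2 minus DMSO, with its 95% interval from limma for the 37 tested guidance genes; orange and blue mark genes called higher and lower with IWP2, grey those not called. The intervals of PLXNA2 (-4.89 to -3.83), NTN4, UNC5C and NTN1 lie farthest to the left, and that of SEMA6A (1.13 to 2.21) farthest to the right.

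The genes that work beside these ligands and receptors were read from a list of 14 co-receptors and other guidance ligands, of which 11 were tested. Of these, 2 rose, 4 fell and 5 were not called, beside 13.2% of all tested genes called. NRP1 and NRP2, the neuropilins that hold class 3 semaphorins, fell from 15.0 and 14.5 FPKM to 1.34 and 0.946 FPKM and from 65.4 and 72.1 FPKM to 16.1 and 13.8 FPKM (12.9-fold and 4.61-fold, limma, adjusted p = 0.0010 and 0.0011). FLRT3, an adhesion protein that binds UNC5 receptors, fell 5.89-fold, and L1CAM, an adhesion partner of NRP1, fell 2.23-fold. NTNG1, a membrane-anchored relative of the netrins, rose 4.37-fold, and DRAXIN, a secreted ligand of DCC, rose 2.09-fold. Neogenin (NEO1) was at 18.5 and 16.2 FPKM against 19.1 and 15.1 FPKM, while DCC itself stayed at or under 1.45 FPKM. Of 24 cytoplasmic transducers, 1 rose (FES, a tyrosine kinase, 1.68-fold), 2 fell (CRMP1, which relays SEMA3A signals, 1.73-fold, and SRGAP3, a GTPase regulator that binds Robos, 3.53-fold) and 21 were not called. Their median difference was -0.01, the same as that of all genes tested to 2 decimals.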

How the data were processed

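RNA from day 2 cells was sequenced after Illumina TruSeq library preparation, which does not mark strand. The authors deposited a value per gene and library, read here as FPKM: the file header names no unit, and the values are not whole and sum to different totals per library. The submitters' processing notes name BWA, Bowtie, RSEM and hg19, with no versions or roles, and which tool made the deposited values is not settled. Between 333 and 380 values a library lay above 0 but under 1e-30, and 181 rows, 55 of them among those tested, share an Ensembl ID with another row. No guidance gene does. Each row was treated as a gene. Of 55723 rows whose versioned Ensembl ID is in GENCODE 29, 55629 had its GRCh38 coordinates once starts were counted from 1, so coordinates here are GRCh38. Groups came from the sample titles, and the columns marked without IWP2 were taken as the DMSO group. No value column was left out.

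Genes with a mean of at least 0.5 FPKM over the 4 libraries were kept. IWP2 and DMSO were compared with limma 3.58.1 (R 4.3.3) on log2(FPKM + 1), with empirical Bayes moderation, a mean-variance trend and Benjamini-Hochberg adjustment over all 15980 genes. Fold values are ratios of mean FPKM; differences are on the log2(FPKM + 1) scale, which understates changes of low genes. The fit was also run on values simulated from its own fitted spread, which cannot show how well it suits these data. Alternatives were a pseudocount of 0.1, a mean of at least 1 FPKM or no filter, TPM, median-of-ratios and quantile scaling, no trend, robust moderation, a replicate block and leaving out each library. Depth is unknown, so no counting interval is given. Values per library are given for members called or with a mean of at least 5 FPKM in a group, the rest by counts and ranges, and a paralog could be named beside a called member of its class. The members and lists were chosen with earlier results of these data known.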

Additional observations from a re-analysis of the deposited data

How the results depend on the processing

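No called guidance gene changed sign under any of the 13 alternatives. Under 8 of the 9 alternatives that kept all libraries, the 14 calls were the same genes, with UNC5B, SEMA4A or SEMA3D added under some. With no filter on low values, 28917 genes were tested and 381 were called (118 higher, 263 lower), and among the guidance genes 3 were called (PLXNA2, SEMA4C and SEMA5B), 0 higher and 3 lower, although 8 and 11 had an unadjusted limma p under 0.05; that setting tests more genes by construction, and the cause was not tested. Leaving out a library leaves a lone sample that is assumed to vary like the other group. Calls then ranged from 94 to 696 over all genes (18 to 286 higher, 76 to 410 lower) and from 1 to 6 guidance genes (0 to 2 higher, 1 to 4 lower). With 0 called higher, 6 to 8 had an unadjusted limma p under 0.05. PLXNA2 was called in all 4 of these fits, and SEMA6A, SEMA3E, NTN4 and UNC5C whichever DMSO library was left out.

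The titles number the libraries 1 and 2 in each group, but no label ties the numbers across groups. Deviations of the libraries numbered 1 from their group means correlated at 0.14 across 15980 genes. With the replicate block, 1901 genes (842 higher, 1059 lower) and 14 guidance genes (5 higher, 9 lower) were called, against 2104 and 14 without it, and the block changed no guidance gene's call.

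Scaling moved the median difference of all genes to between -0.04 and 0.03. Depth is unknown and each group holds 2 libraries. Of the called guidance genes only SEMA4C and SEMA4D differed by less than 2-fold.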
